A study of Mus musculus with 6 samples.

Results

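Transcription regulators of T cell state were examined in T cells from mouse melanomas: Tcf7, Lef1 and Sox4, which encode HMG-box factors, and Id3 and Id2, which encode inhibitors of DNA binding. They were taken by gene symbol and make up 5 of the 14597 genes of the count table, each in all of its 12818 cells. TCRβ+ T cells had been sorted from subcutaneous B16-F10 tumors, which grow from a mouse melanoma line, and single-cell RNA sequencing (scRNA-Seq) had been done with 5′ chemistry. All animals were Foxp3-EGFP-DTR mice, whose regulatory T (Treg) cells make the diphtheria toxin receptor under control of Foxp3 and are lost on treatment with diphtheria toxin (DTx). The labels list 3 samples of PBS-treated and 3 of DTx-treated mice, and the methods describe the study's animals as adult mice of both sexes. The strain was not given in the sources used here. Every cell carries a library number from 1 to 6, but no label ties a number to a sample. PBS and DTx were therefore not compared, and no library is assigned a treatment. Ratios between populations of cells were computed inside libraries, and levels pooled over libraries are named as pooled.

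Tcf7 encodes TCF1, which with LEF1 binds DNA at sites regulated by Wnt and β-catenin signaling and is known for keeping naive, memory and stem-like exhausted T cells able to self-renew. ID2 and ID3 lack a DNA-binding region and pair with E proteins, which keeps those from binding E-box sequences. In CD8+ T cells ID2 is known for its association with effector cells and ID3 for its association with memory and stem-like cells, while SOX4 is a related HMG-box factor best known in early lymphocyte development.

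In GENCODE M21 on GRCm38, Tcf7 (ENSMUSG00000000782.15) lies on the minus strand at chr11:52252371-52283014 and Lef1 (ENSMUSG00000027985.14) on the plus strand at chr3:131110471-131224356. Sox4 (ENSMUSG00000076431.4) lies at chr13:28948919-28953713 on the minus strand. Id3 (ENSMUSG00000007872.3) lies at chr4:136143497-136145755 on the plus strand and Id2 (ENSMUSG00000020644.9) at chr12:25093799-25097140 on the minus strand. All are protein-coding genes. Tcf7, Lef1 and Sox4 each overlap annotated noncoding or predicted genes, whereas Id3 and Id2 overlap none. Because 5′ libraries read transcripts from their start, the RefSeq windows around the annotated start (build GRCm38.p6, from 250 bases before to 50 after) are shown for the 4 genes on which the results turn. Capitals mark E-box letters (CANNTG, the sequence that E proteins recognize). Where several windows are annotated, the closest to the GENCODE start is shown.

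Tcf7 promoter, chr11:52282965-52283264 (minus strand): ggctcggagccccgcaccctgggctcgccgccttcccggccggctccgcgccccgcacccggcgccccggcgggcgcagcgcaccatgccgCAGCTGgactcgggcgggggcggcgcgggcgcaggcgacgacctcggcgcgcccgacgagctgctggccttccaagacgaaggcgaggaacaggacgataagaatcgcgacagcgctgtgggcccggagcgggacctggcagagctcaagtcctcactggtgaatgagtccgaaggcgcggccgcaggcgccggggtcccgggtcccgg
Lef1 promoter, chr3:131110073-131110372 (plus strand): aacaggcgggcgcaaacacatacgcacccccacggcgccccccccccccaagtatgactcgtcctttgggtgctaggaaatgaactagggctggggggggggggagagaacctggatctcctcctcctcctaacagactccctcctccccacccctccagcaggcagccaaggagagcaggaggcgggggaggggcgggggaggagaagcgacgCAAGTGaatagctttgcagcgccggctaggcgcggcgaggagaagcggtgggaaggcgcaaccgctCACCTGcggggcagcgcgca
Id3 promoter, chr4:136143572-136143871 (plus strand): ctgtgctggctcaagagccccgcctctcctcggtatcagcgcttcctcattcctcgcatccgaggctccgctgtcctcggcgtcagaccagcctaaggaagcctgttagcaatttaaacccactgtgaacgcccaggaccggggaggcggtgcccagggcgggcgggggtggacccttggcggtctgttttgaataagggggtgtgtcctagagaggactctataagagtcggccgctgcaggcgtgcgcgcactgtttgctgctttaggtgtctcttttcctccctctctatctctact
Id2 promoter, chr12:25096043-25096342 (minus strand): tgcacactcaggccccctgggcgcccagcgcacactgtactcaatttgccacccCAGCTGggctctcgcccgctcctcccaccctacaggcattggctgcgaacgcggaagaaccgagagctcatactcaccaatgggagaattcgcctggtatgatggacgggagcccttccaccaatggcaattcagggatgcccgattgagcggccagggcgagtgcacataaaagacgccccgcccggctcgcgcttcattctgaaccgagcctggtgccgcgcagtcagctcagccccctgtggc

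The Tcf7 window holds 1 E-box match, the Lef1 window 2, the Id2 window 1 and the Id3 window 0. At least 1 such match is present in 72.3% of the 32851 promoter windows of this length, so its presence does not set these genes apart. The E-box match of the Tcf7 window follows shortly after an ATG. From that ATG to the end of the window the letters form a reading frame with no stop codon, and the match lies in this frame. Calling this window a promoter rests on the annotated start alone, and whether the stretch is coding sequence was not tested. The letters CTTTGA and CTTTGT, both of which TCF1 and LEF1 can bind, were searched on both strands. Neither occurs in the 4 windows shown, and they occur in 16.0% and 18.7% of all windows. A further Lef1 window, at chr3:131156044-131156343, has 2 matches to CTTTGA and 1 to CTTTGT. These matches describe letters only.

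Levels are given as unique molecular identifiers (UMIs) of a gene per 10000 UMIs of the same cells, with exact Poisson 95% intervals that cover counting error only. The libraries held 21816565 UMIs, with a median of 610 to 2499.5 UMIs per cell. A UMI of a T cell marker was found in 95.4% of the cells, with 86.0% to 99.3% by library, and 76 barcodes occurred in more than 1 library. CD4+ Tconv cells (1205) had a Cd4 UMI and none of Cd8a, Cd8b1 or Foxp3. CD8+ T cells (4497) had a Cd8a or Cd8b1 UMI and none of Cd4 or Foxp3. Foxp3+ cells (97) had a Foxp3 UMI and none of Cd8a or Cd8b1. A further 163 cells had UMIs of both lineages and 6838 had no gating UMI. B cell markers (4 of 6 in the table) had a UMI in 11.4% of the cells, myeloid markers (4 of 8) in 3.53%, stromal markers (3 of 6) in 4.53%, melanoma markers (5 of 5) in 0.140%, and NK and innate lymphoid markers (7 of 7) in 22.0%. Less mRNA per cell and fewer cells with the mRNA cannot be told apart in a summed level.

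Id2 was the most abundant of these mRNAs and Sox4 the least. Over all cells, 6700 UMIs of Id2, 4541 of Lef1, 3150 of Tcf7, 1809 of Id3 and 114 of Sox4 were counted. Id2 mRNA was detected in 27.5% of the cells, Lef1 mRNA in 25.7%, Tcf7 mRNA in 18.7%, Id3 mRNA in 8.66% and Sox4 mRNA in 0.796%. No cell held more than 7 UMIs of Lef1, 6 of Tcf7 or 4 of Sox4, while single cells reached 16 UMIs of Id2 and 14 of Id3. Cells without a gating UMI had 2.17 UMIs of Tcf7 per 10000 (2.07 to 2.28), above CD8+ T cells at 1.05 (0.987 to 1.12) and CD4+ Tconv cells at 0.889 (0.778 to 1.01). The intervals of these last populations overlap. Lef1 had the same order, at 2.76, 1.75 and 1.56 UMIs per 10000. Id2 ran the other way, with 2.59 in cells without a gating UMI, 3.20 in CD8+ T cells and 3.90 in CD4+ Tconv cells. These pooled levels mix libraries in different proportions. Inside libraries 1 to 6, Id2 was at 1.99, 0.907, 1.92, 4.57, 3.51 and 2.74 in cells without a gating UMI. In CD8+ T cells it was at 1.94, 0.976, 1.82, 5.17, 3.44 and 2.78. In CD4+ Tconv cells it was at 3.63, 1.01, 2.04, 4.47, 4.33 and 3.66. The pooled order of all these populations was therefore kept only in libraries 2 and 6.

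The levels differed far more between libraries than between lineages. Tcf7 mRNA stood at 2.67, 3.76, 2.52, 0.646, 0.437 and 0.367 UMIs per 10000 in libraries 1 to 6, a 10.3-fold range. Lef1 mRNA was at 2.79, 5.68, 2.91, 1.0, 1.01 and 0.918, a 6.18-fold range. Both were highest in library 2 and lowest in library 6.

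Id3 mRNA stood at 1.74, 1.89, 1.5, 0.347, 0.242 and 0.296 UMIs per 10000, a 7.81-fold range with library 5 lowest. Id2 mRNA was at 2.22, 0.937, 1.94, 4.87, 3.65 and 2.87, a 5.19-fold range with library 2 lowest and library 4 highest. Its level in each of libraries 1 to 3 was below its level in each of libraries 4 to 6, the reverse of Tcf7, Lef1 and Id3. Sox4 mRNA was at 0.0475, 0.245, 0.0626, 0.00585, 0.0137 and 0 UMIs per 10000, and library 2 alone held 78 of its 114 UMIs. In library 6, where no Sox4 UMI was counted, a count of 0 allows a level of up to 0.00853.

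**Figure D1:**
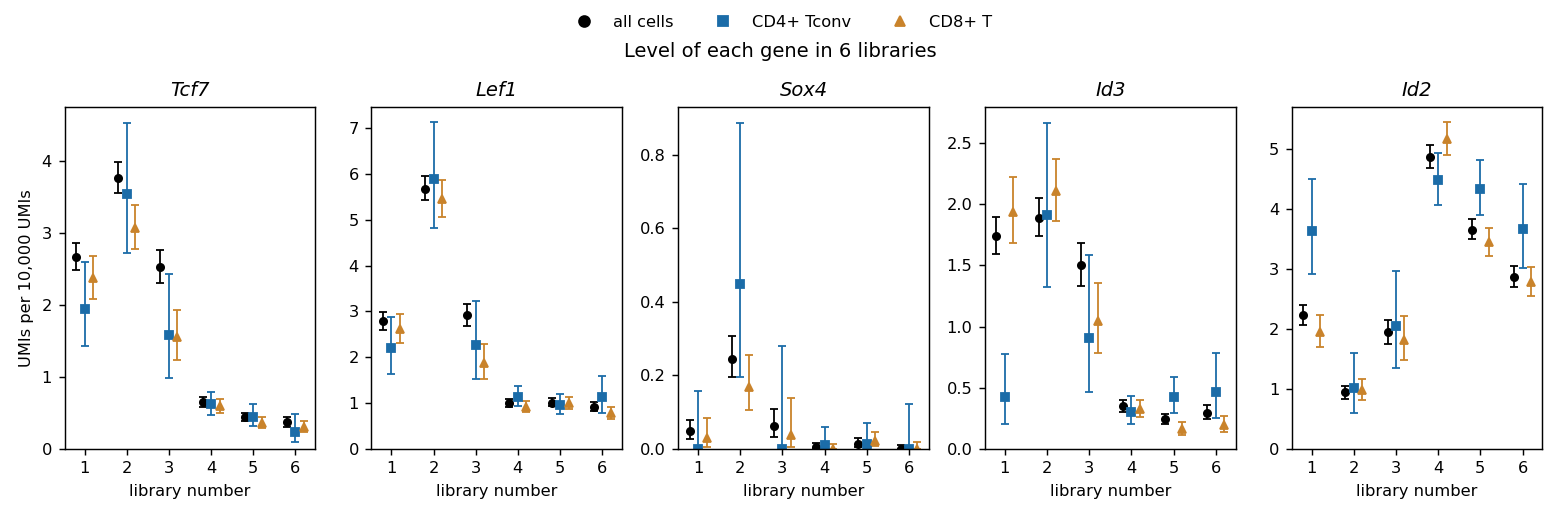
Level of each gene (vertical axes, UMIs per 10,000 UMIs, each panel with its own scale) in libraries 1 to 6 (horizontal axes), in all cells, CD4+ Tconv cells and CD8+ T cells; bars are 95% Poisson intervals. Tcf7, Lef1 and Id3 in all cells are highest in library 2, where Id2 is lowest at 0.937; Id3 in library 1 is at 0.423 in CD4+ Tconv and 1.94 in CD8+ T cells.

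Other properties of the libraries moved with these levels. Among CD8+ T cells of libraries 1 to 6, Gzmb, which encodes a cytotoxic protease, had a UMI in 15.8%, 0.903%, 21.6%, 60.6%, 71.3% and 58.9% of the cells. Pdcd1, which encodes the inhibitory receptor PD-1, had a UMI in 10.1%, 1.02%, 12.2%, 30.4%, 30.0% and 20.2%. Ribosomal protein and mitochondrial genes took from 32.0% of the UMIs in library 4 to 47.3% in library 2. The part of these differences in the levels of the 5 genes was not tested.

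The libraries kept their order in Tcf7 detection at equal depth. When every cell was thinned to 1000 UMIs, with 8113 cells left, Tcf7 mRNA was detected in 19.9%, 27.0%, 13.0%, 6.67%, 4.19% and 3.82% of the cells of libraries 1 to 6. Before thinning the shares were 27.2%, 33.1%, 17.3%, 14.0%, 9.21% and 5.76%. Lef1 mRNA was detected in 39.7% of the thinned cells of library 2 and in 8.92% of those of library 6. Id2 mRNA was detected in 8.51% of the thinned cells of library 2 and in 33.8% of those of library 4.

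The balance of the Id genes differed between libraries. In CD8+ T cells, Id2 made up 50.1%, 31.7%, 63.6%, 94.1%, 95.5% and 93.5% of the UMIs of Id2 and Id3 in libraries 1 to 6. In CD4+ Tconv cells the shares were 89.6%, 34.6%, 69.2%, 93.7%, 91.1% and 88.7%. Library 2 was the only library in which Id3 UMIs outnumbered Id2 UMIs in either lineage. Library 1 was the only library in which the exact binomial intervals of the lineages were far apart. The balance of the HMG-box genes moved less, since Lef1 made up from 51.1% of the UMIs of Lef1 and Tcf7 in library 1 to 71.5% in library 6 over all cells.

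**Figure D2:**
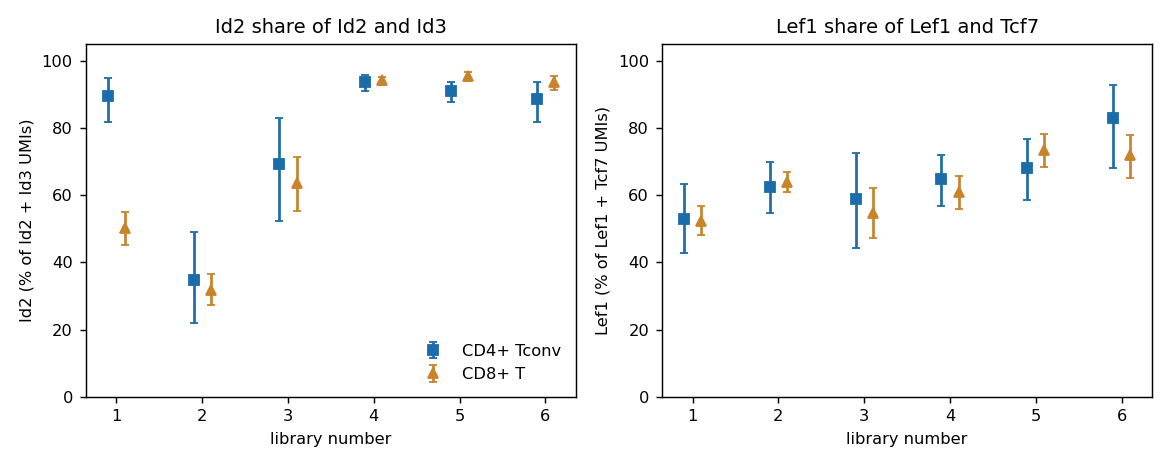
Id2 as a percentage of Id2 and Id3 UMIs (left) and Lef1 as a percentage of Lef1 and Tcf7 UMIs (right) in libraries 1 to 6, in CD4+ Tconv and CD8+ T cells; bars are exact binomial 95% intervals. The Id2 share in CD8+ T cells runs from 31.7% in library 2 to 95.5% in library 5, and the lineages stand apart in library 1 at 89.6% and 50.1%.

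For comparisons inside libraries, a Mantel-Haenszel ratio of the levels over libraries was computed with its 95% interval of counting error. A gene was called where this combined ratio passed 1.5-fold and every library with at least 20 cells of both populations shared its direction. A single library could differ by less than 1.5-fold. Libraries with fewer cells gave no direction but still entered the combined ratio. The share of all genes with at least 50 UMIs that met this rule is given as the background. Sox4 stayed under 50 UMIs in each comparison, so at most 4 of the 5 genes could be called.

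Sox4 in CD8+ T cells was at 0.563 times its level in CD4+ Tconv cells (0.280 to 1.13), on 32 and 10 UMIs. The combined levels of Tcf7, Lef1, Id3 and Id2 mRNA in these populations lay within 1.5-fold of each other. Single libraries differed more for Id3 and Id2. None of the 4 genes was called lower, where 2.79% of 8986 genes were, and none higher, where 2.5% were. CD8+ T cells had 0.975 times the Tcf7 level of CD4+ Tconv cells (0.844 to 1.13), 0.926 times the Lef1 level (0.830 to 1.03) and 0.918 times the Id2 level (0.855 to 0.985). In library 1 Id2 was at 1.94 UMIs per 10000 in CD8+ T cells (1.69 to 2.23) and 3.63 in CD4+ Tconv cells (2.91 to 4.49), 0.535 times. Id3 was at 1.11 times (0.922 to 1.34), but its libraries did not share a direction. The Id3 ratio of CD8+ to CD4+ cells was 4.58 in library 1, 1.10, 1.15 and 1.06 in libraries 2 to 4, and 0.381 and 0.411 in libraries 5 and 6. Without library 1 the combined Id3 ratio was 0.825. Of 18 stem-like and naive genes that could be called, 1 was higher in CD8+ T cells, Xcl1 at 5.82 times, and Bcl6, a follicular helper factor, was lower at 0.509 times. Axin2, a target and inhibitor of β-catenin signaling, was lower at 0.533 times and was the only called gene of 15 β-catenin and Groucho partners. Of 27 effector and exhaustion genes, 7 were higher, led by Gzma at 12.5, Prf1 at 6.48 and Eomes at 6.22 times, and 3 were lower, Tox2 at 0.117, Rbpj at 0.421 and Nr4a3 at 0.584 times.

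Foxp3+ cells had less Tcf7 and Lef1 mRNA than CD4+ Tconv cells. In library 1 Tcf7 mRNA was at 0.935 UMIs per 10000 in 49 Foxp3+ cells and 1.94 in CD4+ Tconv cells. In library 2 no Tcf7 UMI was found in 30 Foxp3+ cells, which allows a level of up to 0.565, against 3.54 in CD4+ Tconv cells. Libraries 3 to 6 had 17, 0, 0 and 1 Foxp3+ cells and gave no direction, though those of libraries 3 and 6 entered the combined ratios.

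The Foxp3+ to CD4+ Tconv ratio over libraries was 0.256 for Tcf7 (0.140 to 0.470) and 0.427 for Lef1 (0.284 to 0.642), on 12 and 27 UMIs in Foxp3+ cells. These 2 genes were called lower, where 12.4% of 5382 genes were, and none was called higher, where 13.2% were. Id2 stood at 0.936 times (0.674 to 1.30) and Id3 at 1.07 times (0.627 to 1.82). Thinned to 1000 UMIs, 46 Foxp3+ cells were left, of which 1 had a Tcf7 UMI and 4 an Id2 UMI. On these few cells Tcf7 was at 0.0906 and Id2 at 0.420 times. Pooled without strata and not thinned, Tcf7 was at 0.690 and Lef1 at 0.888 times, and neither was called. Without library 1 the Tcf7 ratio was 0.0850 and Id3 was also called lower at 0.523, and without library 2 the Tcf7 ratio was 0.456 and Id3 was called higher at 1.59. Of 14 stem-like and naive genes, 4 were lower in Foxp3+ cells, Foxp1 at 0.345, Xcl1 at 0.483, Ccr7 at 0.524 and Satb1 at 0.572 times, and Ltb was higher at 1.73 times. Of 24 effector and exhaustion genes, 4 were higher, led by Entpd1 at 5.63, Prdm1 at 2.45 and Ctla4 at 2.36 times, with Klrg1 at 1.98 times, and 4 were lower, Gzmk at 0.0865, Gzma at 0.124, Zeb2 at 0.583 and Cxcr6 at 0.632 times. Of 9 β-catenin and Groucho partners, Csnk1a1 at 1.94 and Ctnnb1, the β-catenin gene, at 1.90 times were higher. Tcf12, an E protein gene, was lower at 0.563 times. NK and innate lymphoid markers stood at 3.77 to 6.82 UMIs per 10000 in Foxp3+ cells and 0.168 to 3.30 in CD4+ Tconv cells. Cycling markers stood at 1.40 to 3.96 against 0.281 to 1.31, and the part of either in these ratios was not tested.

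Among CD8+ T cells, those with a Pdcd1 UMI (813) had less Tcf7 and Id3 mRNA than those without (3684). Tcf7 mRNA stood at 1.11, 0.456, 0.446, 0.321 and 0.163 UMIs per 10000 in Pdcd1+ cells of libraries 1, 3, 4, 5 and 6, against 2.64, 1.92, 0.673, 0.378 and 0.362 in Pdcd1- cells. Id3 mRNA stood at 0.791, 0.456, 0.141, 0.115 and 0.0181, against 2.18, 1.24, 0.419, 0.186 and 0.264. Both were lower in Pdcd1+ cells in each of these 5 libraries, by a small margin for Tcf7 in library 5. Library 2 had under 20 Pdcd1+ cells and gave no direction.

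The Pdcd1+ to Pdcd1- ratio was 0.524 for Tcf7 (0.424 to 0.647) and 0.360 for Id3 (0.267 to 0.487). These 2 genes were called lower, where 1.06% of 8484 genes were, and none was called higher, where 2.18% were. Lef1 was at 0.678 times (0.583 to 0.788), just inside 1.5-fold and higher in library 5. It was called when library 5 was left out, at 0.567, and when libraries were pooled without strata. Id2 was at 0.884 times (0.817 to 0.955), with 3 libraries lower and 2 higher. The median depth was 2889 UMIs in Pdcd1+ and 1558.5 in Pdcd1- cells. With cells thinned to 1000 UMIs Tcf7 was at 0.704 times and no longer called, while Id3 was at 0.253 times.

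Other genes of the naive and stem-like state were also lower in Pdcd1+ CD8+ T cells, with 3 of 18 called lower and none higher. They were Dapl1 at 0.348, Klf2 at 0.470 and S1pr1 at 0.633 times. The median log2 ratio of this list was -0.33, against 0.09 over all genes tested. Of 26 effector and exhaustion genes, 5 were called higher and none lower, Tox at 1.85, Lag3 at 1.71, Havcr2 at 1.66, Nr4a2 at 1.53 and Nr4a3 at 1.51 times. The β-catenin cofactor genes Bcl9l and Pygo2 were lower at 0.554 and 0.625 times, and no other of 14 genes on the list of β-catenin and Groucho partners was called.

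Gzmb marked a larger difference in Tcf7 mRNA. CD8+ T cells with a Gzmb UMI (1839) had 0.719, 0.463, 0.369, 0.238 and 0.220 UMIs of Tcf7 per 10000 in libraries 1, 3, 4, 5 and 6. Cells without (2658) had 2.88, 2.19, 1.06, 0.821 and 0.497. The level was lower in Gzmb+ cells in each of these 5 libraries. The Gzmb+ to Gzmb- ratio was 0.312 for Tcf7 (0.255 to 0.380) and 0.284 for Id3 (0.222 to 0.364).

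These 2 genes were called lower in Gzmb+ CD8+ T cells, where 1.67% of 8484 genes were, and none was called higher, where 4.08% were. Thinned to 1000 UMIs, the ratios were 0.381 for Tcf7 and 0.367 for Id3. Lef1 behaved differently, at 1.48, 1.08, 0.880, 1.03 and 0.745 UMIs per 10000 in Gzmb+ cells against 2.97, 2.34, 1.01, 0.860 and 0.852 in Gzmb- cells. Its ratio was 0.749 (0.647 to 0.867), with library 5 in the opposite direction. It was called without library 5, at 0.666, and when libraries were pooled without strata. The Lef1 interval did not reach those of Tcf7 or Id3. Id2 was at 0.943 times (0.873 to 1.02), higher in 3 libraries and lower in 2.

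Of 18 stem-like and naive genes, 4 were called lower in Gzmb+ CD8+ T cells and none higher: Dapl1 at 0.248, Ccr7 at 0.406, Klf2 at 0.460 and Il7r, the interleukin 7 receptor, at 0.613 times. Of 26 effector and exhaustion genes, 6 were higher and none lower, led by Klrg1 at 3.33, Gzma at 2.77, Havcr2 at 1.97 and Prdm1, the gene of the effector factor BLIMP1, at 1.71 times. Axin2 was at 0.508, Pygo2 at 0.647 and Nlk at 0.666 times, 3 of 14 β-catenin and Groucho partners. Of the other E protein and Id genes, 2 could be called in each comparison, and apart from Tcf12 in Foxp3+ cells none was. The median depth was 2572 UMIs in Gzmb+ and 1367.5 in Gzmb- cells, and cycling markers stood at 2.40 to 6.86 UMIs per 10000 in them against 0.247 to 4.13. Myeloid markers stood at 0.324 to 0.534 against 0.124 to 0.293, and the part of these in the ratios was not tested.

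**Figure D3:**
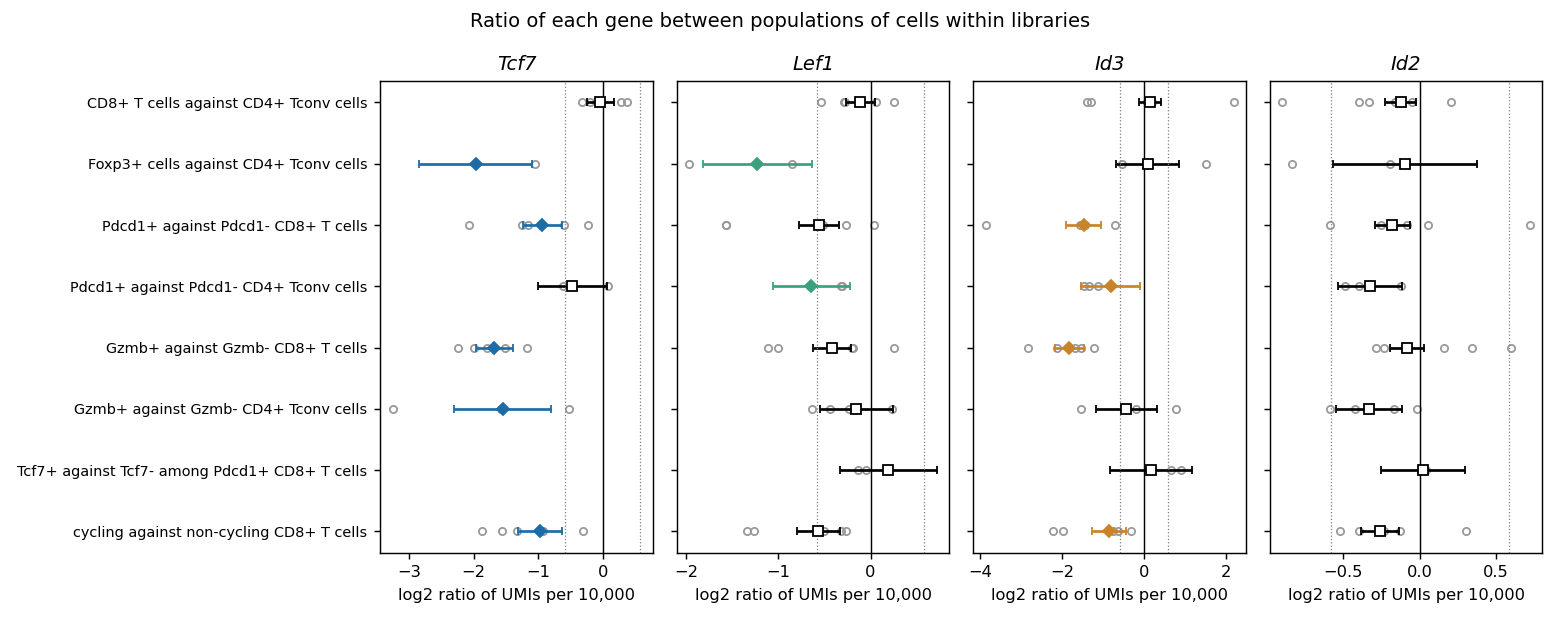
Log2 ratio (horizontal axes) of Tcf7, Lef1, Id3 and Id2 in the 8 comparisons (rows), combined over libraries with 95% counting intervals; filled diamonds are called, open squares are not, grey circles are single libraries with UMIs in both populations and dotted lines mark 1.5-fold. Tcf7 and Id3 are called in Pdcd1+, Gzmb+ and cycling CD8+ T cells, and Id2 is called in no comparison.

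CD8+ T cells were then split by both genes, and Tcf7 and Lef1 had like ratios in Pdcd1+ Gzmb- cells but not in the Gzmb+ populations. Relative to Pdcd1- Gzmb- cells, Tcf7 mRNA was at 0.570 times in Pdcd1+ Gzmb- cells (0.420 to 0.774), 0.316 times in Pdcd1- Gzmb+ cells (0.248 to 0.402) and 0.269 times in Pdcd1+ Gzmb+ cells (0.201 to 0.362). The interval of Pdcd1+ Gzmb- cells, which pools 235 cells, lies above those of both Gzmb+ populations. In these cells Tcf7 was lower in 3 libraries and higher in library 5, at 0.917 UMIs per 10000 against 0.792. Id3 mRNA was at 0.407 (0.269 to 0.614), 0.305 (0.230 to 0.403) and 0.167 times (0.109 to 0.255). It was lower in each of the libraries compared in all of these populations.

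Lef1 mRNA was at 0.542 times in Pdcd1+ Gzmb- cells (0.403 to 0.729), 0.802 times in Pdcd1- Gzmb+ cells (0.676 to 0.952) and 0.660 times in Pdcd1+ Gzmb+ cells (0.537 to 0.812), so that its lowest ratio fell in a different population from that of Tcf7. In Pdcd1+ Gzmb- cells Lef1 was lower in 2 libraries and higher in 2. Id2 mRNA was at 0.975, 0.980 and 0.831 times. As a share of the UMIs of Lef1 and Tcf7, Lef1 was 58.6% in Pdcd1- Gzmb- cells (56.4% to 60.8%), 52.0% in Pdcd1+ Gzmb- cells (41.8% to 62.1%), 75.2% in Pdcd1- Gzmb+ cells (71.0% to 79.1%) and 74.8% in Pdcd1+ Gzmb+ cells (68.8% to 80.2%), pooled over libraries. Id2 likewise made up 61.9% of the Id2 and Id3 UMIs in Pdcd1- Gzmb- cells and 96.7% in Pdcd1+ Gzmb+ cells. These pooled shares mix libraries, since library 2 held 870 of 2423 Pdcd1- Gzmb- cells and 1 Pdcd1+ Gzmb+ cell. Inside libraries 1, 3, 4, 5 and 6 the Id2 share was 41.1%, 48.1%, 87.9%, 85.8% and 88.4% in Pdcd1- Gzmb- cells. It was 68.2%, 90.9%, 97.7%, 97.6% and 98.9% in Pdcd1+ Gzmb+ cells, higher in each of these libraries.

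**Figure D4:**
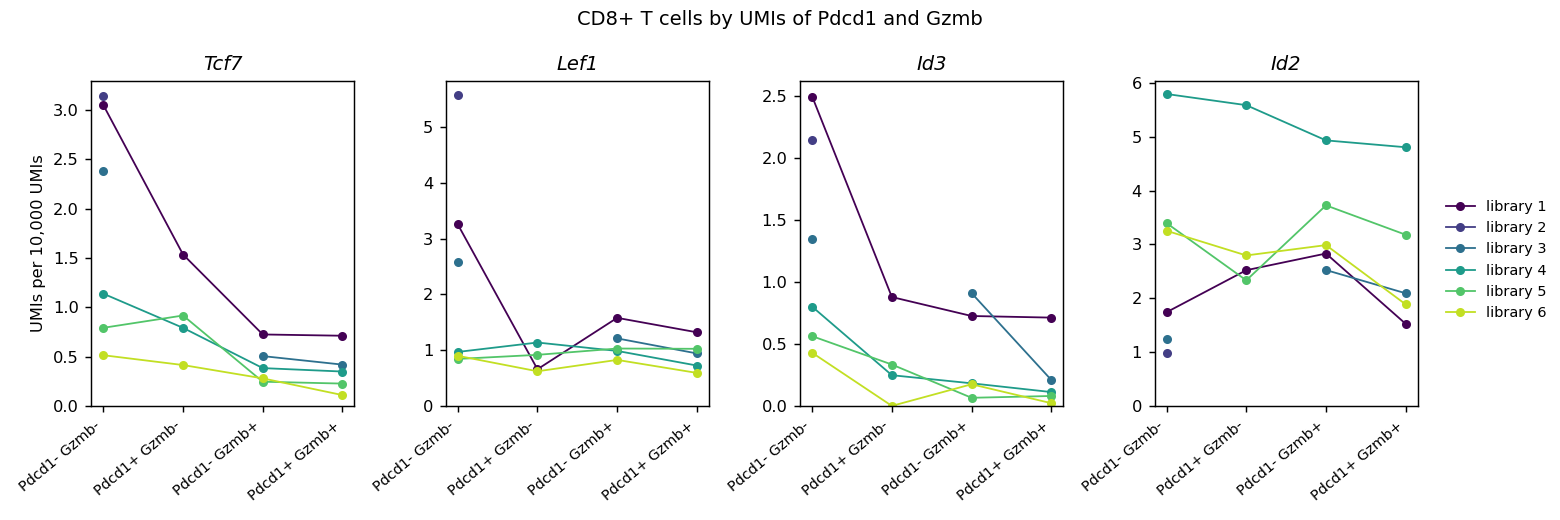
Level (vertical axes, UMIs per 10,000 UMIs) of 4 genes in CD8+ T cells split by UMIs of Pdcd1 and Gzmb (horizontal axes), with a line for each library over populations of at least 20 cells. In library 4, Tcf7 is at 1.14 in Pdcd1- Gzmb- and 0.348 in Pdcd1+ Gzmb+ cells, while Id2 is at 5.80 and 4.81.

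In CD4+ Tconv cells the combined ratios lay below 1 as well, on fewer UMIs. Pdcd1+ CD4+ Tconv cells (206) had 0.809, 0.814 and 0.947 UMIs of Lef1 per 10000 in libraries 4 to 6, against 1.27, 1.02 and 1.17 in Pdcd1- cells (999). Id3 stood at 0.169, 0.204 and 0.189 against 0.364, 0.517 and 0.525, on 17 Id3 UMIs in all Pdcd1+ cells. Both were lower in each of these 3 libraries, with Lef1 at 0.636, 0.801 and 0.810 times. Libraries 1 to 3 had under 20 Pdcd1+ cells and gave no direction, but their cells entered the combined ratios.

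The Pdcd1+ to Pdcd1- ratio in CD4+ Tconv cells was 0.640 for Lef1 (0.480 to 0.855) and 0.572 for Id3 (0.346 to 0.946), called lower where 3.65% of 5144 genes were, and none was called higher, where 4.49% were. Tcf7 was at 0.723 times (0.497 to 1.05) and Id2 at 0.799 times (0.691 to 0.925). These calls were fragile. Lef1 lost its call without library 3, at 0.671, Id3 without library 5, at 0.684, and Tcf7 gained one without library 4, at 0.545. Thinned to 1000 UMIs, Lef1 was at 0.917 times and Id3 at 1.03 times.

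Of 14 stem-like and naive genes, S1pr1 at 0.531, Klf2 at 0.560 and Satb1 at 0.591 times were called lower in Pdcd1+ CD4+ Tconv cells and none was higher. Of 24 effector and exhaustion genes, 7 were higher and none lower, led by the inhibitory receptor gene Lag3 at 7.03, Zeb2 at 2.81, Gzmk at 2.34 and Rbpj at 1.90 times. No β-catenin or Groucho partner of 8 was called by Pdcd1 or Gzmb in CD4+ Tconv cells.

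Gzmb+ CD4+ Tconv cells (207) differed from Gzmb- cells (998) in Tcf7. It stood at 0.766, 0.0833, 0.342 and 0 UMIs per 10000 in libraries 1, 4, 5 and 6, on 16 UMIs in all Gzmb+ cells, against 2.28, 0.796, 0.489 and 0.295. The ratio was 0.341 (0.203 to 0.572). Tcf7 alone was called lower, where 2.95% of 5144 genes were, and no gene of the 4 was called higher, where 2.24% were. Thinned to 1000 UMIs, the Tcf7 ratio was 0.628.

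Lef1 was at 0.899 times in Gzmb+ CD4+ Tconv cells (0.682 to 1.18), an interval that lies above that of Tcf7. Id2 was at 0.794 times (0.682 to 0.924) and lower in all 4 libraries. Id3 was at 0.746 times (0.444 to 1.25) and was called lower without library 5, at 0.301. Of 14 stem-like and naive genes, Xcl1 at 0.438 and S1pr1 at 0.647 times were lower and none was higher. Of 24 effector and exhaustion genes, 4 were higher, Gzma at 8.96, Nkg7 at 1.62, Nr4a2 at 1.58 and Ctla4 at 1.51 times, while Tox2 at 0.502 and Zeb2 at 0.566 times were lower.

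A Tcf7 UMI among Pdcd1+ CD8+ T cells, a sign of stem-like exhausted cells, was found in 87 of 813 cells. The combined Lef1 and Id2 levels of these cells lay within 1.5-fold of those of the other 726, and Id3 had too few UMIs to compare. Lef1 stood at 0.755 and 0.980 UMIs per 10000 in Tcf7+ cells of libraries 4 and 5, against 0.827 and 1.01 in Tcf7- cells. Id2 stood at 5.08 and 3.14 against 4.96 and 3.05. The ratios were 1.14 for Lef1 (0.794 to 1.65) and 1.02 for Id2 (0.840 to 1.23), and Id3 was at 1.13 times on 10 and 38 UMIs, with an interval of 0.569 to 2.26. In libraries 4 and 5 Id3 stood at 0.206 and 0.196 UMIs per 10000 in Tcf7+ cells, on 3 and 2 UMIs, against 0.129 and 0.104. Neither Lef1 nor Id2 was called lower, where 8.94% of 5280 genes were, or higher, where 4.09% were. Only these 2 libraries held 20 cells of both populations, and libraries with fewer cells entered the combined ratios. Lef1 was at 0.914 and 0.967 times in libraries 4 and 5, so its combined 1.14 runs against the direction of both. The Lef1 interval reaches past 1.5-fold.

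Other genes did differ between these Tcf7+ and Tcf7- cells. Of 25 effector and exhaustion genes, 5 were called lower and none higher, the inhibitory receptor gene Havcr2 at 0.298, Gzma at 0.475, the ectonucleotidase gene Entpd1 at 0.478, Tbx21 at 0.543 and Batf at 0.579 times. Ccr7, a lymph node homing receptor, was higher at 2.27 times and was the only called gene of 15 stem-like and naive genes. The median depth was 3718 UMIs in Tcf7+ and 2813.5 in Tcf7- cells, and a Tcf7- cell at this depth can still hold Tcf7 mRNA. NK and innate lymphoid markers stood at 1.27 and 2.06 UMIs per 10000 in the Tcf7+ cells of these libraries and at 2.66 in the Tcf7- cells of both, and their part in these ratios was not tested.

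Cycling CD8+ T cells, which had a UMI of a proliferation marker (588), had less Tcf7 and Id3 mRNA than the other CD8+ T cells (3909). Tcf7 stood at 0.698, 0.711, 0.501, 0.221 and 0.138 UMIs per 10000 in libraries 1, 3, 4, 5 and 6, against 2.54, 1.78, 0.618, 0.419 and 0.408. Id3 stood at 1.20, 0.267, 0.268, 0.117 and 0.0688 against 2.01, 1.25, 0.336, 0.180 and 0.269. Both were lower in cycling cells in all 5 libraries.

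The cycling to non-cycling ratio was 0.511 for Tcf7 (0.402 to 0.648) and 0.559 for Id3 (0.418 to 0.746), called lower where 3.74% of 8483 genes were, and none was called higher, where 6.75% were. Lef1 was lower in the same 5 libraries at 0.675 times (0.574 to 0.794), just inside 1.5-fold, and was called without library 4, at 0.642, or library 5, at 0.615. Id2 was at 0.835 times (0.766 to 0.910). The median depth was 3655 UMIs in cycling and 1573 in the other cells, and with depth quartile as a further stratum Id3 was at 0.741 times and no longer called. Thinned to 1000 UMIs, Id3 was at 0.267 and Tcf7 at 0.532 times. Of 18 stem-like and naive genes, 4 were lower and none higher, Il7r at 0.517, Klf2 at 0.547, S1pr1 at 0.599 and the survival gene Bcl2 at 0.647 times. None of 26 effector and exhaustion genes was called in either direction, and of the β-catenin and Groucho partners only Tle4, a Groucho co-repressor, was called, at 0.647 times.

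Detection in the same cell was counted for the 10 pairs of these genes, against the number expected from library and depth. In CD8+ T cells, 303 cells had both Tcf7 and Lef1 UMIs where 266 were expected, 1.14 times (1.01 to 1.27). It was the only pair with an interval above 1, and none was below. Tcf7 with Id3 was at 1.18 times (0.981 to 1.41), Lef1 with Id3 at 1.16 times (0.992 to 1.36), and Id3 with Id2 at 0.935 times (0.767 to 1.13), with 108 cells that held both Id mRNAs. In CD4+ Tconv cells, Tcf7 and Lef1 occurred together in 70 cells where 53.5 were expected, 1.31 times (1.02 to 1.65). Sox4 and Id3 occurred together in 5 cells where 1.35 were expected, 3.70 times (1.20 to 8.65). Depending on the library left out, 0 to 3 pairs were above expectation in CD8+ T cells and 0 to 2 in CD4+ Tconv cells. Without library 1 no CD8+ pair was, and without library 4 no CD4+ pair was.

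The genes most like each of these 5 were ranked by Pearson's r of log2 levels over 12 points, the CD4+ Tconv and CD8+ T cells of each library, among 5572 genes. Tcf7 was most like Rflnb (r of 0.976), Klf3 (0.963) and Ifi208 (0.962). Lef1 was most like Klf2 (0.967), a regulator of T cell trafficking, Npc2 (0.962) and the ribosomal protein gene Rps21 (0.958). Id3 was most like Rps21 (0.947), Klf2 (0.940) and Snhg8 (0.930), and Id2 was most like Tbc1d10c (0.976), Chp1 (0.970) and Actr3 (0.958). Sox4, with 42 UMIs in these points, was most like Arhgef1 (0.906), Rpl7 (0.900) and Gimap6 (0.899). Among the 5 genes themselves, Tcf7 and Lef1 had an r of 0.927, Id3 and Lef1 of 0.896, and Id2 and Lef1 of -0.88. The points share libraries, and with each library centred Tcf7 and Lef1 had an r of -0.12, Id3 and Lef1 of 0.50, and Id2 and Lef1 of -0.065. Centring also replaced all 3 of the most alike genes of each of the 5.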

How the data were processed

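The deposited values are raw UMI counts, whole numbers for each gene in each cell. The authors prepared 10x 5′ libraries from sorted TCRβ+ cells, merged them with Cell Ranger and kept cells with 200 to 2500 genes and under 5% mitochondrial transcripts in Seurat. The methods name build mm10 and the labels mm9, so the build behind the counts was not settled, and no coordinate comes from the table. Whether counting used strand was not given in the sources used here. Sequences and positions come from RefSeq and GENCODE, in which 14417 of 14597 gene symbols were found.

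Counts were summed over the cells of a population and library and divided by all UMIs of these cells. Ratios were Mantel-Haenszel ratios stratified by library, with Greenland-Robins 95% intervals. Level and share intervals were exact Poisson and Clopper-Pearson, the limit for a count of 0 was 3 counts, and likeness used a pseudocount of 0.1. All of these cover counting error only and not differences between animals. No p-value was computed: the 6 library numbers are tied to no sample, so the libraries were not taken as replicates and their values are given side by side. Doublets were not removed here. A chi-square test of summed counts gave at least 3.40 per degree of freedom for every pair of libraries, so none was a repeat of another.

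The 5 genes and the gene lists were chosen with earlier results of these data known. From each list, at most 4 called genes per comparison with the largest ratios were named, and remaining called genes were counted; in counts of 5 or fewer these were also named, after their values were seen. A gene of the stem-like list and the comparisons that rested on it are not reported here. Alternatives were pooling without strata, depth quartiles, totals without ribosomal and mitochondrial genes, and Cd4, Cd8 and Foxp3 gates at 2 UMIs. Further alternatives were thinning to 1000 UMIs, leaving out cells with markers of other types, medians over libraries and leaving out each library. The calculation was tested on simulated data. Python 3.11.15, NumPy 2.4.6, SciPy 1.17.1 and pandas 2.3.3 were used.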

Additional observations from a re-analysis of the deposited data

How the results depend on the processing

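No paired analysis was possible because PBS and DTx were not compared, the library numbers being tied to no sample. Populations were compared inside each library instead. Of the 11 called ratios, 142 values were computed under alternatives and 1 changed direction: the log2 ratio of Id3 in Pdcd1+ against Pdcd1- CD4+ Tconv cells was 0.046 with cells thinned to 1000 UMIs. A further 19 values kept their direction but moved outside the reported interval. With thinning, 2 of the 11 ratios stayed inside it, 8 moved and 1 changed direction. With pooling, 3 stayed inside it and 8 moved. Leaving out cells with markers of other types kept the direction of all 11. Pooled without strata, the genes called in Foxp3+ cells were 1 lower, Id2 at 0.629 times, and 1 higher, Id3 at 2.01 times. Tcf7 at 0.690 and Lef1 at 0.888 times lost their calls there. In Gzmb+ CD4+ Tconv cells the genes called with pooling were 3 lower. Thinned to 1000 UMIs, 1 was lower in Pdcd1+ CD8+ T cells and 0 in Pdcd1+ CD4+ Tconv cells. The setting of 2 UMIs applied to the Cd4, Cd8 and Foxp3 gates only, and any UMI still made a cell Pdcd1+ or Gzmb+. With these gates, 0 were lower in Foxp3+ cells, Pdcd1+ CD4+ Tconv cells or Gzmb+ CD4+ Tconv cells. The ratios remained low, at 0.378 for Lef1 in Foxp3+ cells and 0.249 for Tcf7 in Gzmb+ CD4+ Tconv cells. In Pdcd1+ CD4+ Tconv cells they were 0.607 for Lef1 and 0.190 for Id3. With depth quartiles, 1 was lower in Pdcd1+ CD4+ Tconv cells and 1 in cycling CD8+ T cells. Over libraries left out, 0 to 1 were higher in Foxp3+ cells, 1 to 3 lower in Pdcd1+ CD4+ Tconv cells and 1 to 2 lower in Gzmb+ CD4+ Tconv cells. Pairs above expectation numbered 0 to 3 in CD8+ T cells and 0 to 2 in CD4+ Tconv cells, and with library alone as stratum 3 in CD8+ T cells. On totals without ribosomal and mitochondrial genes, the range over libraries was 12.9-fold for Tcf7, 7.80-fold for Lef1, 10.1-fold for Id3 and 4.02-fold for Id2. Thinning and stricter gates leave fewer cells, and thinned cells were gated again on the UMIs that remained. The cause of these shifts was not tested. Depth limits Sox4, with 114 UMIs, in every comparison.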

Other observations

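The values of the libraries, which no label puts in a group, fell into separate ranges. In all cells Tcf7 was at 2.52 to 3.76 UMIs per 10000 in libraries 1, 2 and 3 and at 0.367 to 0.646 in libraries 4, 5 and 6, and Id3 was at 1.5 to 1.89 and 0.242 to 0.347. Lef1 was at 2.79 to 5.68 and 0.918 to 1.01, and Id2 at 0.937 to 2.22 and 2.87 to 4.87. Within CD4+ Tconv cells, Id3 in library 1 was at 0.423, inside the 0.303 to 0.466 of libraries 4, 5 and 6. Foxp3+ cells numbered 49, 30, 17, 0, 0 and 1 in libraries 1 to 6.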
